A study of Mus musculus with 12 samples.

Results

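The Eph receptors and ephrins are described here in the proximal colonic mucosa of APC Min/+ and wild type (WT) mice. The 10 genes (*Ephb1*, *Ephb2*, *Ephb3*, *Ephb4*, *Ephb6*, *Epha2*, *Efnb1*, *Efnb2*, *Efna1* and *Efna2*) were chosen by symbol, as receptors and ligands that set the position of cells along the intestinal crypt, from 38924 genes counted in each mouse. All 10 were measured deeply enough to be tested among 20311 genes. RNA-Seq was carried out on 12 female C57BL/6 mice aged 6 weeks, of which 6 carried APC Min/+ and 6 were WT, with 1 library per mouse. The Min allele is a germ-line nonsense mutation of *Apc*, present in every cell of the animal in 1 copy, and at this age the mice were reported to have no detectable neoplasia. The genotypes were kept in separate cages, so genotype and cage cannot be told apart. The animals arrived in several shipments, and since the labels do not give the shipment of a mouse, its part in the values was not tested. The samples were pieces of mucosa and not purified epithelium, so fewer cells of a type and less RNA per cell cannot be told apart in any value below.

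Eph receptors are receptor tyrosine kinases that bind ephrins held on the membrane of neighbouring cells, and signals run into both cells at the contact. In the intestinal epithelium *Ephb2* and *Ephb3* are targets of β-catenin and TCF and are high at the crypt base, while *Efnb1* and *Efnb2* are high towards the crypt mouth, and the opposed gradients keep proliferating and differentiated cells apart. APC belongs to the complex that marks β-catenin for destruction, and for this reason the family is of interest in mice that carry an *Apc* mutation.

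The sequence just before the start site was examined for letters bound by TCF. The window ran from base 250 to base 51 before the RefSeq start, a length of 200 bases upstream of that start, in assembly GRCm38.p6. All 10 members matched a RefSeq promoter, and *Efna1* had 2, which gave 11 windows. Of the *Efna1* windows, 1 lay partly and the other wholly inside the GENCODE M21 span of the gene. The letters searched on both strands were CTTTG followed by 2 bases that were each A or T, the core of the TCF motif. They were found in 1 of the 11 windows, that of *Epha2*, as CTTTGAA on the strand of the gene and 209 bases before its start, against 12.4% of 32851 RefSeq windows of the same length. The windows of the crypt base receptors *Ephb2* (chr4:136836063-136836262 on the reverse strand) and *Ephb3* (chr16:21204545-21204744 on the forward strand) held none of these letters, nor did that of *Ephb6* (chr6:41605261-41605460 on the forward strand). These are shown with the window of *Epha2* (chr4:141300971-141301170 on the forward strand) because *Ephb2* and *Ephb3* are the textbook TCF targets, while *Ephb6* and *Epha2* were the members that varied most between mice. RefSeq windows are written 5′ to 3′ on the strand of the gene, with the motif in capitals.
Ephb2: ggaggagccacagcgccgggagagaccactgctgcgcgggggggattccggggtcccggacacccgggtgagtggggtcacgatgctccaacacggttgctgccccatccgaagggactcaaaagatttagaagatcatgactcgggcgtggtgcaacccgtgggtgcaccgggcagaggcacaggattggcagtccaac
Ephb3: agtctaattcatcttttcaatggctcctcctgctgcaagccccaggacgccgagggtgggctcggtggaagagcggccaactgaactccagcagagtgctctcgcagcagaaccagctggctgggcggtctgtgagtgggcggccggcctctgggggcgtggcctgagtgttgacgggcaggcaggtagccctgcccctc
Ephb6: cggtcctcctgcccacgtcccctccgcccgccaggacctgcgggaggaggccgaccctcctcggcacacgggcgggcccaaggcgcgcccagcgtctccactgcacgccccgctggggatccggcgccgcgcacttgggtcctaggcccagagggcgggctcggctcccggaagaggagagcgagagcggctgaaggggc
Epha2: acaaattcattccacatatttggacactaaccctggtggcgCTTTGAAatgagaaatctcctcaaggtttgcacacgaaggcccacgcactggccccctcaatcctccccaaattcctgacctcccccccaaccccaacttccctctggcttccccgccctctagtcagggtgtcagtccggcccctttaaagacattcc
The window of *Ephb6* was the richest of the 4 in G and C, at 76.5%, against 64.5% for *Ephb2*, 65% for *Ephb3*, 54.5% for *Epha2* and a median of 51.5% over all windows. A match or its absence is a description of these letters in this window and says nothing on whether TCF binds elsewhere.

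The total count on genes lay between 81730206 and 197914821 in the APC Min/+ mice and between 50313805 and 117477400 in the WT mice, so that 3 counts were worth 0.0152 to 0.0596 CPM (counts scaled to a common library size). *Apc* itself was counted at 164 to 216 CPM in APC Min/+ mice and 154 to 239 CPM in WT mice, which does not check the genotype, since a nonsense allele can still be transcribed. Of the libraries, 3 stood apart. The APC Min/+ mice M10_2 and M13_1 held *Hoxb13*, a homeobox gene known from the most distal gut, at 378 and 275 CPM, against 0 to 0.744 CPM in the other 10 mice. The summed CPM of 5 distal *Hox* genes was 473 and 600 in those mice and 7.34 to 13.7 in the rest. Thus these libraries, labelled proximal colon, went against their label in *Hoxb13* and in this sum. The summed CPM of 12 crypt top genes was 9250 and 9745 against 25045 to 49542. *Car1* was its largest part in the other 10 mice, at 14621 to 32560 CPM against 965.5 and 2539. *Krt20*, *Guca2a*, *Ceacam1* and *Fabp2* were also lower in both mice than in the rest. In contrast *Car4* was higher in both. *Slc26a3*, *Klf4*, *Aqp8*, *Hpgd* and *Cdkn1a* lay inside or above the range of the rest, and *Slc9a3* was lower in M13_1 alone. The third was the WT mouse M17_1, which had 12.7% of its counts on mitochondrial genes and the steepest fall of expression with GC content. The mitochondrial share was 6.00% to 8.08% in the other WT mice and 4.35% to 8.46% in the APC Min/+ mice. Every mouse expressed the epithelial markers (*Epcam*, *Cdh1*, 3 keratins and *Vil1*), with a summed CPM from 6373 in M17_1 to 11353 in the WT mouse M18_b.

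Compared per kilobase of the gene length given with the counts (RPKM), 3 of the 4 ligands led the order of levels. *Efna1*, which is anchored by a lipid and binds *Epha2*, was highest at 37.1 ± 6.65 RPKM (SD, n = 12 mice). *Efnb1* and *Efnb2*, which span the membrane and are bound by the EphB receptors, followed at 22.6 ± 6.97 and 22.4 ± 6.90 RPKM and could not be ordered, since *Efnb1* exceeded *Efnb2* in 7 of 12 mice. Among receptors *Ephb4* led at 15.0 ± 5.06 RPKM, ahead of *Epha2* at 7.94 ± 4.88, *Ephb2* at 3.97 ± 1.59 and *Ephb3* at 2.72 ± 1.05 RPKM. The crypt base receptors were thus well below the B-type ligands in level per kilobase. The order depends on these lengths. By mean CPM *Efnb2* was highest, at 106 in APC Min/+ and 87.2 in WT mice, and *Efna1* had 72.2 and 63.7. *Ephb2* then exceeded *Epha2*, at 53.4 against 34.3 CPM in APC Min/+ and 46.7 against 39.9 CPM in WT mice. *Ephb6* had 0.996 ± 1.28 RPKM and *Efna2* 0.340 ± 0.0763 RPKM, and this pair did not differ beyond its spread either, although *Ephb6* was the higher in 11 of 12 mice. *Ephb1*, known mainly from the nervous system, was lowest at 0.0626 ± 0.0275 RPKM and rested on 14 to 143 counts per mouse. Every other pair of neighbours in the order differed by a mean log2 ratio larger than its SD over mice.

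**Figure D1:**
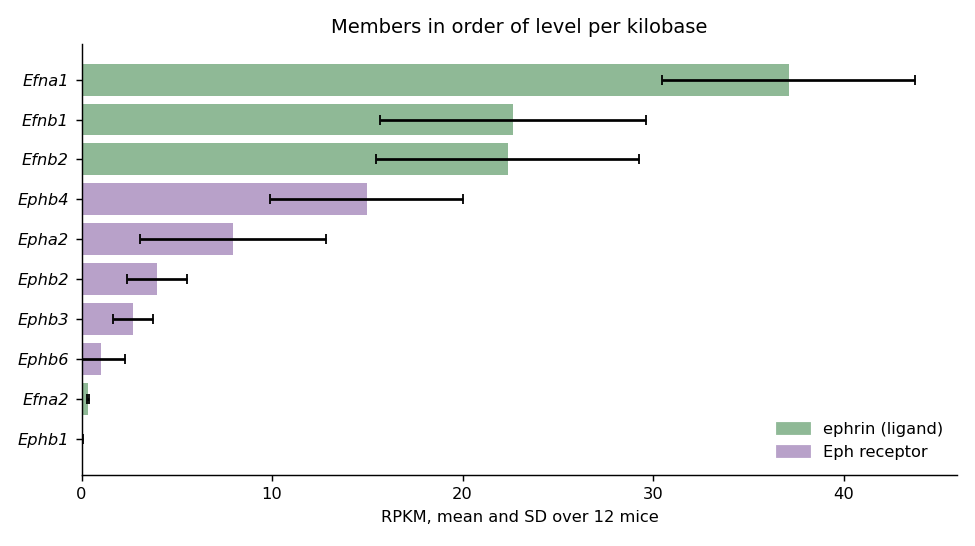
Level of each member in RPKM (CPM per kilobase of gene length), as the mean with the SD over 12 mice, with ephrins in green and Eph receptors in purple. *Efna1* leads at 37.1 RPKM and the ligands *Efnb1* and *Efnb2* stand level, while *Efna2* and *Ephb1* lie near the floor of the axis.

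The question put to the genotype comparison was whether the family differs in mucosa with 1 mutant copy of *Apc* before neoplasia appears. No member was called different between genotypes. By edgeR's quasi-likelihood test, at a Benjamini-Hochberg adjusted p under 0.05 together with a 2-fold minimum, 0 of 10 members were called, where 0% of the 20311 genes tested were called. The lowest adjusted p over all genes was 0.908 by this test. The paper did report differentially expressed genes in these mice, with edgeR at an FDR under 0.05 and a 2-fold cutoff. None of the 10 members is in its list, and the cause of the difference in genes called was not tested. DESeq2, the edgeR exact test and the edgeR likelihood ratio test also called 0 of the 10, with 27, 10 and 15 genes called over the whole table. At an unadjusted p under 0.05 the count was 1 of 10 members, *Ephb6*, against 5.27% of all genes. In 0 of 10 members did the 6 APC Min/+ values lie wholly apart from the 6 WT values, against 0.118% of all genes. Estimated fold changes were above 0 for 9 of 10 members with a median log2 fold change of 0.26, where 48.4% of all genes were above 0 with a median of -0.0077. Several members moved together across mice, so their shared sign is not 10 separate observations. The median was 0.17 without M10_2 and M13_1 and 0.11 without the WT mouse M17_1, with 8 of 10 members above 0 in each case. Leaving out M10_2, M13_1 and M17_1 together, which was chosen after seeing the data, gave a median of 0.0027 with 5 above 0 and 5 below.

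**Figure D2:**
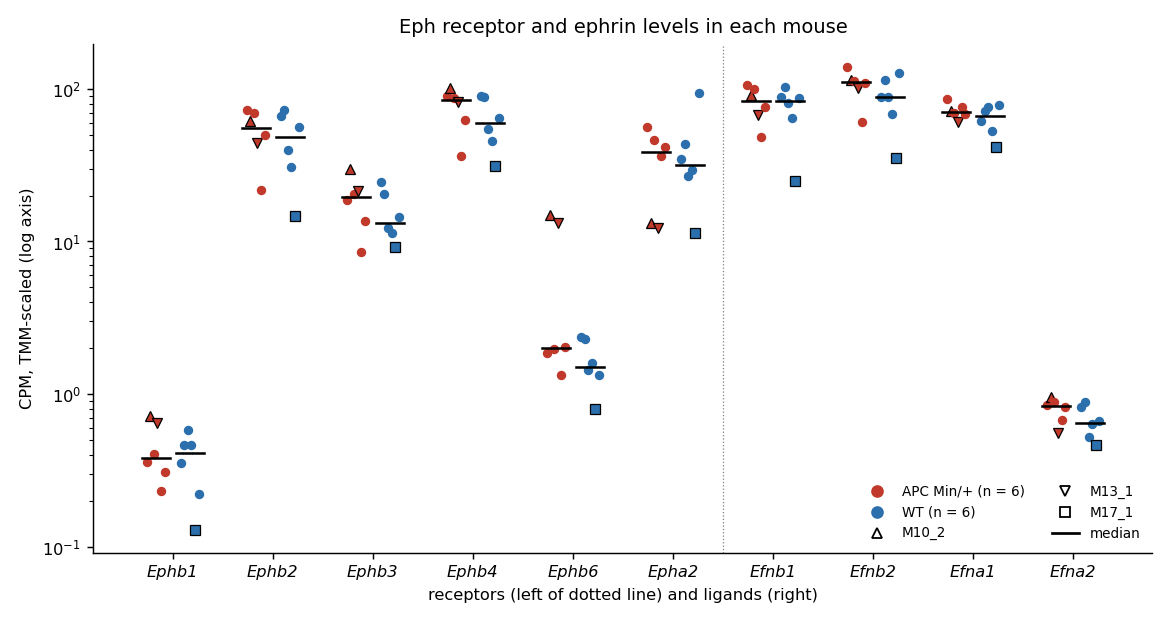
CPM of each member in each mouse on a log axis, with APC Min/+ mice in red, WT mice in blue and a black line at the median of each genotype. The genotypes overlap for every member, M10_2 and M13_1 (triangles) lie about 14 CPM for *Ephb6* where the rest lie at or under 2.37 CPM, and M17_1 (square) is lowest or near lowest throughout.

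*Ephb2* (ENSMUSG00000028664.8, chromosome 4, 136647539 to 136835988 in GENCODE M21 on GRCm38), the receptor that marks crypt base cells most strongly, was found at 21.8, 55.8 and 72.7 CPM (lowest, median and highest) in APC Min/+ mice and at 14.7, 48.1 and 72.6 CPM in WT mice. The genotypes overlapped over nearly their whole ranges, and the lowest values were those of M2_A and M17_1. The log2 fold change was 0.19 (SE 0.358, adjusted p = 0.927 by edgeR). *Ephb3* (ENSMUSG00000005958.8, chromosome 16, 21204755 to 21223305), which acts with *Ephb2* in crypt positioning, lay at 8.57, 19.6 and 29.9 CPM in APC Min/+ mice and 9.20, 13.3 and 24.7 CPM in WT mice. Its highest value came from M10_2, and its log2 fold change of 0.29 (SE 0.295, adjusted p = 0.910 by edgeR) became -0.0023 without M10_2 and M13_1. The ratio of *Ephb2* to *Ephb3* per kilobase was 1.47 ± 0.403 in APC Min/+ and 1.47 ± 0.409 in WT mice (SD, n = 6 each). It was lowest in M17_1 at 0.797, followed by M10_2 at 1.03 and M13_1 at 1.04.

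The B-type ligands overlapped in the same way. *Efnb1* (ENSMUSG00000031217.8, chromosome X, 99136130 to 99148991), the ligand of the upper crypt, was present at 48.3, 83.8 and 107 CPM in APC Min/+ mice and at 24.8, 84.0 and 103 CPM in WT mice. The medians almost coincided, and the log2 fold change of 0.13 (SE 0.286, adjusted p = 0.937) turned to -0.05 without M17_1. *Efnb2* (ENSMUSG00000001300.9, chromosome 8, 8617434 to 8661242), also a ligand known from arterial endothelium, lay at 60.4, 111 and 139 CPM in APC Min/+ and 35.4, 89.0 and 127 CPM in WT mice. APC Min/+ mice had the higher median, yet 5 of 6 WT values fell inside the APC Min/+ range, and the log2 fold change was 0.28 (SE 0.267, adjusted p = 0.910). Summed per kilobase, *Efnb1* and *Efnb2* exceeded *Ephb2* and *Ephb3* by 7.0 ± 1.30 fold in APC Min/+ and 6.98 ± 1.46 fold in WT mice (SD, n = 6 each). This balance of ligand to receptor ran from 5.02 to 9.05 over the 12 mice, a narrower range than that of *Ephb2* alone, which differed 4.94-fold between its extremes.

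*Ephb4* (ENSMUSG00000029710.9, chromosome 5, 137350109 to 137378669), the partner of *Efnb2* in venous endothelium and also a crypt receptor, was counted at 36.5, 84.4 and 101 CPM in APC Min/+ and 31.2, 59.4 and 89.6 CPM in WT mice. The WT median was the lower, the ranges overlapped almost wholly, and the log2 fold change was 0.30 (SE 0.277, adjusted p = 0.910). Its exons share 33 bp with *Zan* on the opposite strand, and the strand used in counting is not given in the sources used here. The summed level of 7 endothelial markers was 102 to 181 CPM in APC Min/+ and 87.4 to 174 CPM in WT mice, and the lowest of these values was again M17_1. The part of endothelial content in *Ephb4* and *Efnb2* was not tested.

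The A-type pair differed in how steady it was. *Efna1* (ENSMUSG00000027954.3, chromosome 3, 89271733 to 89281142) had 61.0, 70.8 and 86.0 CPM in APC Min/+ and 41.3, 66.6 and 78.4 CPM in WT mice, with a coefficient of variation over 12 mice of 17.9%, the lowest of the members. The median over all tested genes was 24.1%. Its log2 fold change was 0.18 (SE 0.151, adjusted p = 0.910). *Epha2* (ENSMUSG00000006445.3, chromosome 4, 141301240 to 141329384), its receptor, ran from 12.3 to 56.5 CPM in APC Min/+ with a median of 38.8, and from 11.3 to 93.5 CPM in WT with a median of 31.9, a coefficient of variation of 61.5%. Low values were shared by M10_2 (13.2 CPM), M13_1 (12.3 CPM) and M17_1 (11.3 CPM), and M18_b alone held 93.5 CPM. *Epha2* was the one member with an estimate below 0, a log2 fold change of -0.21 (SE 0.474, adjusted p = 0.937), and it became 0.24 without M18_b and 0.18 without M10_2 and M13_1. The *Efna1* to *Epha2* ratio per kilobase was 13.8 and 12.6 in M10_2 and M13_1, 9.33 in M17_1 and 2.14 to 7.24 in the other mice.

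*Ephb6* (ENSMUSG00000029869.7, chromosome 6, 41605482 to 41620509), a receptor whose kinase domain has no catalytic activity, had the largest estimate of the members. It was found at 1.33, 2.0 and 14.9 CPM in APC Min/+ mice and at 0.801, 1.51 and 2.37 CPM in WT mice. The mean of the APC Min/+ mice was carried by 2 animals, M10_2 at 14.9 and M13_1 at 13.2 CPM, while the remaining 4 lay between 1.33 and 2.03 CPM, inside the WT range. Across all 12 mice the log2 fold change was 1.85 (SE 0.630, adjusted p = 0.908 by edgeR, exact permutation test over mice p = 0.121). Without M10_2 and M13_1 it was 0.14 (adjusted p = 0.9999 by edgeR). These 2 mice exceeded the highest of the other 10 by 5.57-fold in *Ephb6*, and only 98 of 20311 genes (0.482%) had a larger gap upwards. The high *Ephb6* libraries were those with high *Hoxb13* and a high sum of distal *Hox* genes. Whether *Ephb6* is higher in distal colon was not tested, since no sample is labelled as such.

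**Figure D3:**
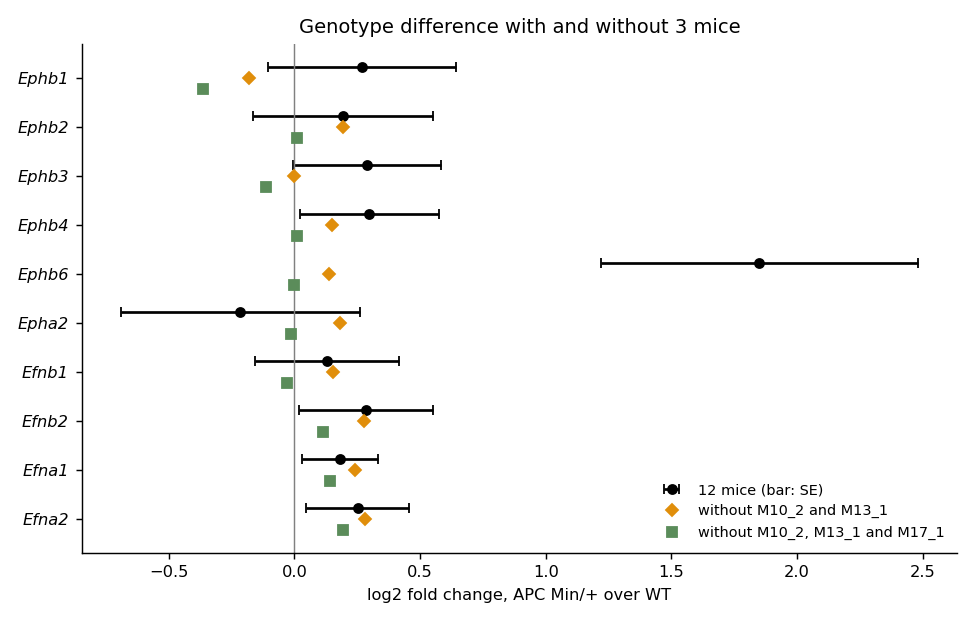
Log2 fold change of APC Min/+ over WT for each member with all 12 mice (black, bar as SE), without M10_2 and M13_1 (orange) and without M10_2, M13_1 and M17_1 (green). *Ephb6* moves from 1.85 to 0.14 and to -0.0033, while the other members stay between -0.36 and 0.30 under all 3 choices.

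The members of lowest level rested on few counts. *Ephb1* (ENSMUSG00000032537.8, chromosome 9, 101922128 to 102354693) was at 0.231, 0.380 and 0.722 CPM in APC Min/+ and 0.129, 0.408 and 0.584 CPM in WT mice. Again the highest values were those of M10_2 (0.722) and M13_1 (0.641), and its log2 fold change of 0.27 (SE 0.375, adjusted p = 0.914) became -0.18 without them. Its exons share 152 bp with the antisense transcript *Gm26846*. *Efna2* (ENSMUSG00000003070.6, chromosome 10, 80179482 to 80190010), a lipid-anchored ligand of EphA receptors, stayed between 0.552 and 0.954 CPM in APC Min/+ animals. The WT values ran from 0.461 to 0.884 CPM, and its estimate on the log2 scale was 0.25 (SE 0.206, adjusted p = 0.910). Exact permutation tests over mice for the 10 members gave p from 0.121 to 0.766, where regroupings of 6 against 6 mice allow a two-sided p as low as 0.00216.

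Much of the spread lay between mice and not between genotypes. M17_1 had the lowest value of all 12 mice for 9 of 10 members, every one except *Ephb3*, for which M2_A was lowest. It was the lowest mouse for 21.7% of all tested genes and the highest for 20.9%. The log2 CPM of the members in M17_1, less the median of the other 11 mice, had a median of -1.45, from -1.94 for *Ephb2* to -0.79 for *Efna1*. The transcripts of the members had a GC content of 50.4% to 59.4%, against a median of 49.6% over genes, and expression in M17_1 fell with GC by 0.405 log2 units per 10 points. After an offset for GC content the median difference was -1.04 and M17_1 was still lowest for 6 of 10 members. At the other end M10_2 held the highest value for 5 members, M8_2 for 4 and M18_b for 1. The coefficient of variation was 30.8% for both *Efnb1* and *Efnb2*, 33.8% for *Ephb4*, 38.6% for *Ephb3*, 40.0% for *Ephb2*, 43.9% for *Ephb1* and 129% for *Ephb6*, all above the 24.1% of the median gene, while *Efna2*, at 22.4%, lay below it as *Efna1* did.

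**Figure D4:**
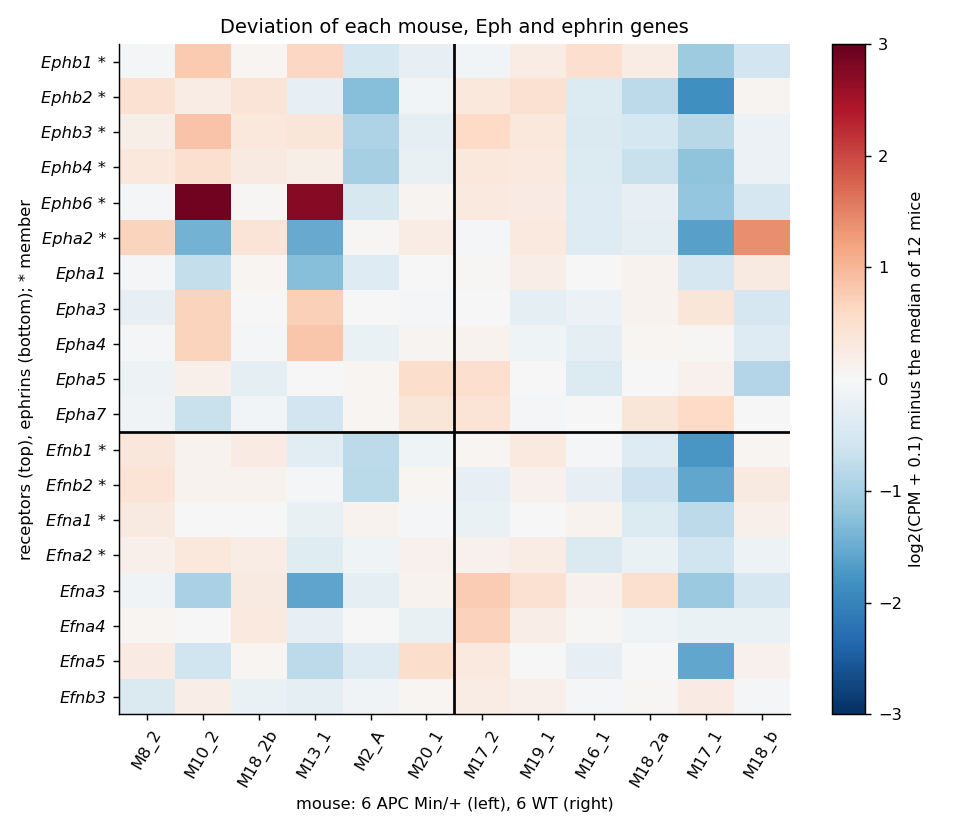
Deviation of each mouse from the median of the 12 mice, in log2(CPM + 0.1), for the members (starred) and other family genes except *Epha6*, *Epha8* and *Epha10*, with receptors above and ephrins below the line and APC Min/+ mice to the left. M17_1 is blue for most members, and M10_2 and M13_1 share a red *Ephb6*, *Epha3* and *Epha4* and a blue *Epha2* and *Epha1*.

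Several EphB receptors and B-type ephrins moved together from mouse to mouse, and so did genes of the same class, at r = 0.956 for *Ephb3* with *Ephb4* and 0.944 for *Efnb1* with *Efnb2*. Other receptor and ligand pairs were looser, at r = 0.631 for *Epha2* with *Efna1*, 0.346 for *Ephb6* with *Efnb1* and 0.424 for *Ephb6* with *Efnb2*. Of the 4 pairs among *Ephb2*, *Ephb3*, *Ephb4*, *Efnb1* and *Efnb2* for which a test was made, the closest was *Ephb2* with *Efnb1*, at Pearson's r = 0.958 over 12 mice on log2 CPM (permutation p = 2e-05, the smallest that 100000 resamples give, adjusted p = 8e-05) and Spearman's rho = 0.972 (permutation p = 2e-05). The relation held within genotypes, at r = 0.984 in APC Min/+ and r = 0.956 in WT mice (exact permutation p = 0.00278 for each), and was 0.914 without M17_1 and M2_A, the mice farthest from the median. Gradients within a crypt cannot be seen in these values, which are sums over all cells of a piece of mucosa, crypts and other tissue together. *Ephb2* with *Ephb3* gave r = 0.830 (permutation p = 0.0007, adjusted p = 0.0014) and rho = 0.706 (permutation p = 0.0125), and r = 0.693 without M17_1 and M2_A. Within genotypes this pair had r = 0.793 in APC Min/+ (exact permutation p = 0.119) and 0.885 in WT (exact permutation p = 0.00556). *Ephb3* with *Efnb1* gave r = 0.706 (permutation p = 0.00548, adjusted p = 0.00548) and rho = 0.664 (permutation p = 0.0216), and r = 0.700 without M2_A and M10_2. Its within-genotype values were 0.723 (exact permutation p = 0.144) and 0.744 (exact permutation p = 0.0194). *Ephb4* with *Efnb2* gave r = 0.858 (permutation p = 0.00108, adjusted p = 0.00144) and rho = 0.727 (permutation p = 0.00914). This last relation rested partly on M17_1 and M2_A, since without them r was 0.619 (permutation p = 0.0709), and it was 0.894 in APC Min/+ (exact permutation p = 0.1) and 0.839 in WT mice (exact permutation p = 0.0556). The slope of expression on GC content also differed between mice. Per 10 points it was -0.405 log2 units in M17_1, -0.194 in M18_2a and -0.191 in M2_A. In M8_2 and M10_2 it was 0.186 and 0.195, with the other mice between. The part of these slopes in the correlations was not tested. Genes outside the family reached a higher r, 0.992 for *Carm1* with *Ephb2* and 0.997 for *Trpc4ap* with *Efnb1*. The permutation p compares a pair with no relation at all, not with other gene pairs. It therefore does not show a link particular to receptor and ligand.

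**Figure D5:**
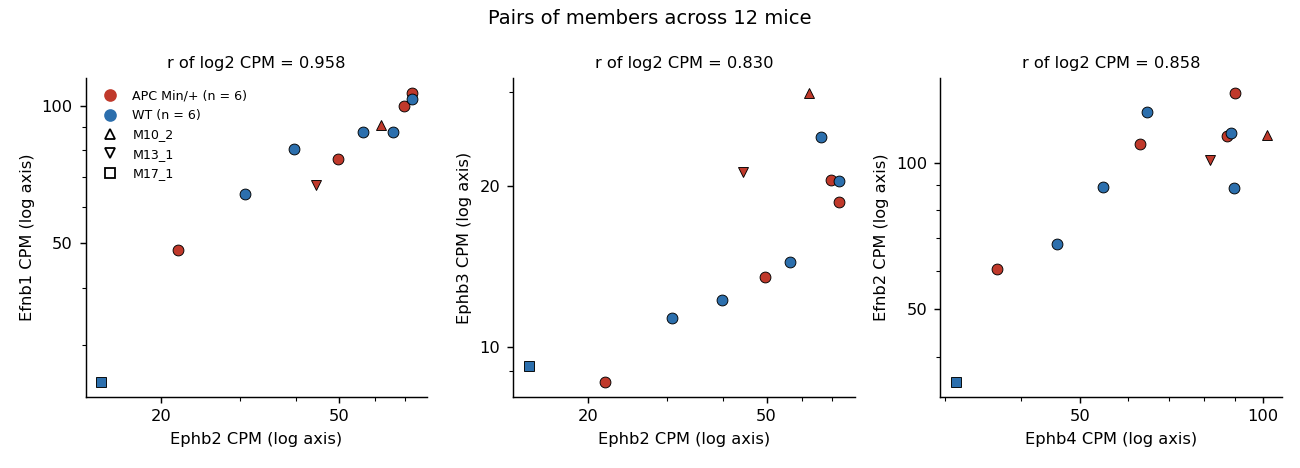
CPM of 3 pairs of members in the 12 mice on log axes, APC Min/+ in red and WT in blue, with M10_2, M13_1 and M17_1 by their own symbols. Mice of both genotypes line up for *Ephb2* and *Efnb1* (r = 0.958), while M10_2 and M13_1 sit above the line of *Ephb2* and *Ephb3* (r = 0.830) and M17_1 is at the low end of each plot.

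The genes most like the members in their pattern over 12 mice were named by the highest Pearson's r of log2 CPM among all tested genes, as a description with no test. For *Ephb2* they were *Carm1* (r = 0.992), *Clstn1* (0.990) and *Mllt1* (0.990). For *Ephb3* they were *Ripor1*, *Mef2d* and *Kcnn4*, between 0.973 and 0.974. *Efnb1* was followed closely by *Trpc4ap* (0.997), *Spint2* (0.994) and *Wbp1l* (0.992), and *Efnb2* by *Spint1* (0.987) and *Foxo3* (0.985). For *Efna1*, *Cdc42ep5* (0.970), *4930539E08Rik* (0.959) and *Nfkbib* (0.953) were closest. None of these was itself an Eph or ephrin gene, and their transcripts held 49.4% to 59.5% G and C.

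The 12 other genes of the family were followed for comparison. Of these 11 could be tested and 0 were called, with 6 above and 5 below 0 and a median log2 fold change of 0.05. By level, *Epha1* had a mean of 17.3 RPKM, above that of each receptor among the members, and 4 more exceeded 1 RPKM, namely *Efna4* (3.07), *Epha7* (2.40), *Epha4* (1.93) and *Efna3* (1.11). The largest estimates were those of genes close to the floor, *Epha8* with a log2 fold change of 1.09 (SE 1.08) and *Epha6* with 0.74 (SE 0.454), where the highest mouse had 0.561 and 0.222 CPM. The libraries M10_2 and M13_1 stood apart here as well. *Epha4* was at 18.23 and 20.3 CPM in them and 8.65 to 12.2 CPM in the other 10 mice. In the other direction *Epha1* had 37.8 and 25.5 CPM in them against 43.5 to 75.0 CPM, and *Epha7* had 14.2 and 15.1 CPM against 20.9 to 34.3 CPM. In total these 2 mice were both above the other 10 in 2 members (*Ephb1* and *Ephb6*) and 3 other family genes (*Epha3*, *Epha4* and *Epha8*), and both below in 2 (*Epha1* and *Epha7*), where 11.8% of all genes had them above and 12.2% had them below.

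Of 35 genes that carry the signal inside the cell (kinases such as *Src* and *Fyn*, adaptors, exchange factors, and the proteases that cut ephrins and Ephs), 35 were tested, 0 were called and 0 had an unadjusted p under 0.05. They lay 25 above and 10 below 0, with a median log2 fold change of 0.06. The largest were *Ptpn13*, a phosphatase that acts on B-type ephrins, at 0.49 (SE 0.277), and *Vav2*, an exchange factor recruited by Eph receptors, at -0.44 (SE 0.331). Both again set M10_2 and M13_1 apart, with *Ptpn13* at 40.9 and 41.5 CPM against 11.1 to 24.6, and *Vav2* at 8.67 and 8.47 CPM against 19.4 to 37.9. *Adam10*, the protease that sheds ephrins, was at 129 to 165 CPM in APC Min/+ and 103 to 155 CPM in WT mice.

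Crypt position was read from lists of other genes. Of 15 crypt base genes, most of them Wnt targets, 0 were called, 13 lay above and 2 below 0, and the median log2 fold change was 0.26. Some lists of other cell types had medians as large, 0.35 for 6 fibroblast markers (5 above 0), 0.29 for 6 neuron markers (6 above 0) and 0.28 for 6 smooth muscle markers (4 above 0, 3 with an unadjusted p under 0.05). The other cell type lists had smaller or negative medians. These were 0.16 for endothelial, 0.12 for glial, 0.06 for epithelial, -0.05 for squamous, -0.09 for goblet and -0.12 for leukocyte markers. A median as large as 0.26 was thus not particular to crypt base genes or to the members. Before adjustment 2 of the 15 passed 0.05, *Lgr4*, an R-spondin receptor, at a log2 fold change of 0.73 (SE 0.269) and *Smoc2*, a matricellular stem cell marker, at 0.53 (SE 0.244), each with an adjusted p = 0.908 by edgeR. *Lgr4* was at 337 and 344 CPM in M10_2 and M13_1 and at 96.4 to 161 CPM in the other 10 mice, and *Smoc2* was at 40.9 and 35.4 CPM against 12.3 to 24.3 CPM. *Ascl2*, *Rnf43*, *Znrf3* and, near the floor, *Notum* were also higher in both. In the other direction *Cd44* was at 42.9 and 39.2 CPM against 108 to 144 CPM, and *Tnfrsf19* at 4.89 and 8.41 CPM against 8.66 to 11.8 CPM. The remaining crypt base genes did not have both mice above or both below the rest. *Lgr5*, the defining stem cell marker, lay at 11.8 to 20.2 CPM in APC Min/+ and 12.1 to 18.4 CPM in WT mice, and its estimate on the log2 scale was 0.06. Of 12 crypt top genes 0 were called, with 5 above and 7 below 0 and a median of -0.26. The largest were *Aqp8*, a water channel, at 0.88 (SE 0.665), and *Slc9a3*, a sodium exchanger, at -0.66 (SE 0.426). The part of crypt composition in the members' values was not tested.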

How the data were processed

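Total RNA from the proximal colonic mucosa of 12 mice was sequenced in paired ends. Per the submitters' processing notes the authors aligned reads with STAR 2.3.0 to GRCm38.p2 and counted them with featureCounts, and the deposited tables hold unnormalized counts per Ensembl gene with gene lengths in bases, 1 table per mouse. Neither strand setting, sequencing batch nor the shipment of each mouse is given in the sources used here.

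From these, 38924 identifiers were joined and 37607 matched a symbol. A gene was tested if 3 or more mice had 10 or more counts. Genotypes were compared with the quasi-likelihood test of edgeR 4.0.16 (R 4.3.3) after TMM scaling, with genotype as the only term. Called means a Benjamini-Hochberg adjusted p under 0.05 together with a 2-fold minimum. The SE is the log2 fold change over the root of F. CPM was scaled with the TMM factors (0.906 to 1.10), RPKM is CPM divided by length in kilobases, and log2 CPM used a prior count of 2. Permutation tests used scipy 1.17.1 and were two-sided. Intervals are not given for counts, since the spread between mice exceeds counting error. The tests were checked on simulated data, where DESeq2 made more false calls than the limit first set for every tool. A limit was then applied to the quasi-likelihood test alone, which met both it and the first. No 2 libraries matched within sampling noise. The closest pair differed by a chi-square of 16.6 per degree of freedom and crossed the genotypes, M18_2b (APC Min/+) with M19_1 (WT).

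The text names the 10 members, the other family genes of at least 1 RPKM, in each further list the called genes and the 2 tested genes with the largest fold changes, the 3 genes most like each of 5 members, and markers that move with a member. A gene that the rule names is not reported here. *Adam10*, *Epha3*, *Hoxd11* and the crypt base genes other than *Lgr4* and *Smoc2* were named after their values were seen. So were the crypt top genes other than *Aqp8* and *Slc9a3*. Members and lists were chosen with earlier results of these data known, and so was the decision to leave out M10_2 and M13_1. Alternatives were DESeq2 1.42.0, the edgeR exact and likelihood ratio tests, RLE scaling, other filters on low counts, no fold minimum, another prior count, CPM without TMM factors, leaving out single mice, and, chosen after seeing the data, an offset for GC content and leaving out M17_1 as well. GC content came from GENCODE M21 transcripts for 98.6% of tested genes, and promoter windows from RefSeq (GRCm38.p6).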

Additional observations from a re-analysis of the deposited data

Results flagged for a closer look

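*Efna4*, a lipid-anchored ephrin, was at 7.71 CPM in the WT mouse M17_2 and at 4.10 to 5.43 CPM in the other WT mice. This mouse lay far from the others of its genotype, with a gap of 0.633 of the whole range against a critical value of 0.625 for 6 mice. It was 1 of 30 groups examined (each genotype for the members and the other family genes of at least 1 RPKM), and chance alone marks about 1 in 20 such groups.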

How the results depend on the processing

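Over all genes the count called was 0 with the quasi-likelihood test and 27 with DESeq2, 10 with the edgeR exact test and 15 with the edgeR likelihood ratio test, and the cause was not tested. DESeq2 made the most false calls of these tests on simulated counts, more than the limit first set. Those counts had the same spread between mice for every gene and no outlying mice such as M10_2 and M13_1. They therefore cannot say how many of its 27 calls are false. No member and no gene of the 4 further lists was called under any alternative, with a lowest adjusted p of 0.222 for a member (*Ephb6* by DESeq2). Among recomputed single-gene values and correlations, 9 changed sign and 263 kept their direction and their side of the threshold. Leaving out 1 mouse at a time gave *Efnb1* log2 fold changes from -0.053 (without M17_1) to 0.25 and *Epha2* from -0.42 to 0.24 (without M18_b). Without M10_2 and M13_1, *Ephb1* was -0.18, *Ephb3* -0.0023 and *Epha2* 0.18. Without M17_1 as well, *Ephb1* was -0.36, *Ephb3* -0.11, *Ephb6* -0.0033 and *Efnb1* -0.029. *Ephb6* ran from 1.32 to 2.06 when 1 mouse was left out. The filter of at least 1 CPM in 6 mice gave no value for *Ephb1* and *Efna2*. No paired analysis was possible because the labels give no replicate numbers or shipments that link the genotypes. With 6 mice per genotype and SEs of 0.151 to 0.630 on the log2 scale, small differences were not detectable here. Nothing says that the mice came from separate litters.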
